A study of Mus musculus with 10 samples.

Results

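Drug and xenobiotic metabolism was followed through 34 genes of the mouse liver: 20 enzymes of phase 1, 11 conjugating enzymes of phase 2 and the 3 receptors Nr1i2, Nr1i3 and Ahr. They were chosen by name, as cytochromes P450, flavin monooxygenases, conjugating enzymes and xenobiotic receptors, and read through probe sets annotated to a single gene. Of the 34, 31 had such a probe set and 30 were bright enough to be tested, out of 18193 genes on the array and 12736 tested.

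RNA was measured on Affymetrix 430 2.0 arrays, with 1 mouse per array. In 5 ApoE-/- mice (arrays labelled dn-cJun, replicates 16 to 20) an adenovirus had delivered a dominant negative form of cJun. In another 5 ApoE-/- mice (control, replicates 11 to 15) the adenovirus carried GFP, a fluorescent protein used as control cargo. All 10 mice therefore share the Apoe deletion by label, an adenoviral infection and the liver as the tissue. The age and sex of the mice, the promoter that drives the viral gene and the time after infection are not given in the sources used here. cJun pairs with other proteins to form the transcription factor AP-1, and its dominant negative form interferes with AP-1 activity.

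The liver clears drugs, bile acids, steroids and foreign chemicals in successive steps. Phase 1 enzymes, chiefly cytochromes P450 and flavin monooxygenases, oxidise the compound, and phase 2 enzymes attach glucuronic acid, sulfate or glutathione to it. The pregnane X receptor (Nr1i2), the constitutive androstane receptor (Nr1i3) and the aryl hydrocarbon receptor (Ahr) sense such compounds and switch on many of these enzymes.

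The deposited array medians lay between 85.3 and 127 intensity units, and pairs of arrays had correlations of 0.948 to 0.965. The 8 hepatocyte markers tested lay at or above the 98.6th percentile of all probe sets. Apoe, lost in all 10 mice by their labels, had log2 signals of 15.31 to 15.82 in the arrays labelled dn-cJun and 9.42 to 10.94 in control arrays. Its log2 fold change was 5.41 (SE 0.22), which goes against the ApoE-/- label of the 5 arrays labelled dn-cJun, so every direction below is between groups that also differ in Apoe signal. Controls 14 and 15 stood apart in transcripts of the sex chromosomes. Xist, transcribed from the inactive X chromosome, was at 13.71 and 13.63 in these controls and at 5.90 to 6.72 in the other 8 arrays, while Eif2s3y, on the Y chromosome, was at 5.22 and 4.08 in these controls and at 10.58 to 11.13 in the other 8 arrays. Results are therefore given with and without controls 14 and 15. Jun itself was at -0.07 (SE 0.17), with a limma adjusted p of 0.890.

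Of the 30 tested members, 1 passed the test, Fmo5, which was higher in the arrays labelled dn-cJun (limma, Benjamini-Hochberg adjusted p under 0.05 over all genes). Among all genes tested, 0.777% passed, 0.345% higher and 0.432% lower. The other tested members split into 14 above and 15 below a log2 fold change of 0, and 50.3% of all genes lay above 0. At an unadjusted p under 0.05 there were 4 members, Fmo5, Cyp2c70, Cyp2c38 and Nr1i2, and 14.9% of all genes. The group ranges did not overlap in 2 members, Fmo5 and Cyp2c70, and in 4.22% of all genes. For 28 of the 30 members the 95% interval of the log2 fold change lay within 1 on either side of 0, and for 17 within 0.5. Fold changes are on the scale of log2(intensity + 16), where a value of 1 is a doubling, and understate the change of dim genes.

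**Figure D1:**
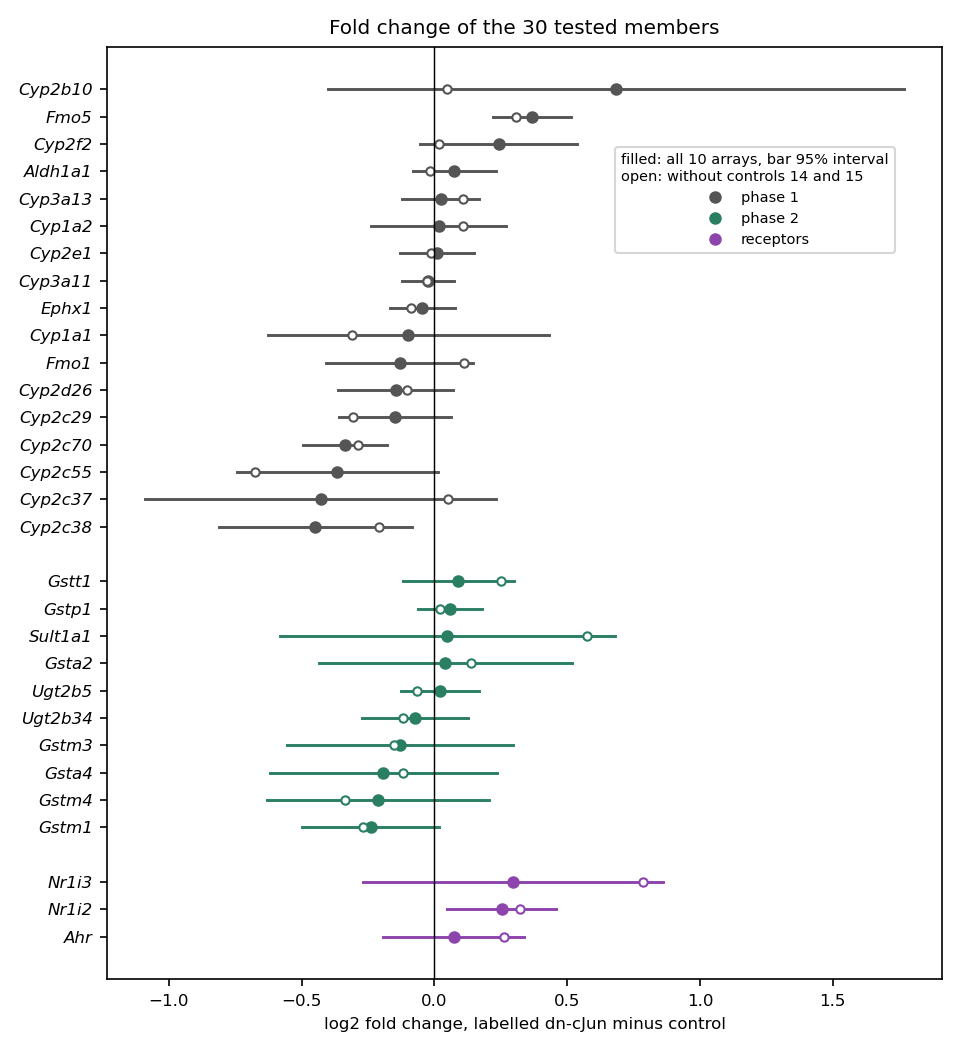
Log2 fold change (arrays labelled dn-cJun minus control, horizontal axis) of the 30 tested members by role; filled points are the values over all 10 arrays, bars their 95% intervals and open points the values without controls 14 and 15. Fmo5 at 0.37 and Cyp2c70 at -0.34 have narrow intervals clear of 0, while Nr1i3 and Sult1a1 have open points far to the right of the filled ones.

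Fmo5 and Cyp2c70 are the 2 members whose groups did not overlap, Cyp2c55 is the member that passed without controls 14 and 15, and Nr1i3 is the receptor with the largest change there. Their promoters are shown for that reason, each 250 bases before and 50 after the RefSeq transcription start in assembly GRCm38.p6. They lie at chr3:97628769-97629068 (plus strand, Fmo5), chr19:40187237-40187536 (minus strand, Cyp2c70), chr19:39006769-39007068 (plus strand, Cyp2c55) and chr1:171213720-171214019 (plus strand, Nr1i3). Capitals mark a match to the AP-1 motif TGACTCA on either strand, which the printed strand shows as TGAGTCA where the match is on the opposite one.
Fmo5: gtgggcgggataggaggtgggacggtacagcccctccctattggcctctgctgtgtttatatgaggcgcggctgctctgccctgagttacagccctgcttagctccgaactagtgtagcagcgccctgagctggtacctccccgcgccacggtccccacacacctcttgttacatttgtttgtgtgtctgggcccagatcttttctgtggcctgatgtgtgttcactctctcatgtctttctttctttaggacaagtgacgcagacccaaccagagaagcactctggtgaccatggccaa
Cyp2c70: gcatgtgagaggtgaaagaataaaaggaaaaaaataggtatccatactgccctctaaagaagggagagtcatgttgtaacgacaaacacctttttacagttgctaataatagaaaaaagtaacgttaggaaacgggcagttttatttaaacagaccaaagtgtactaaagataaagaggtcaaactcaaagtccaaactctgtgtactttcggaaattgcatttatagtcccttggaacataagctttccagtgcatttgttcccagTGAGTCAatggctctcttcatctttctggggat
Cyp2c55: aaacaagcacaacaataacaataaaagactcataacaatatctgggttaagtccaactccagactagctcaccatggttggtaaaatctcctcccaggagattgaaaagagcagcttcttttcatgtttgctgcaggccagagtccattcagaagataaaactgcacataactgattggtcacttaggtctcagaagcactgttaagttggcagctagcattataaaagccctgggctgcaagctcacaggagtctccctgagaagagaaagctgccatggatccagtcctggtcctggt
Nr1i3: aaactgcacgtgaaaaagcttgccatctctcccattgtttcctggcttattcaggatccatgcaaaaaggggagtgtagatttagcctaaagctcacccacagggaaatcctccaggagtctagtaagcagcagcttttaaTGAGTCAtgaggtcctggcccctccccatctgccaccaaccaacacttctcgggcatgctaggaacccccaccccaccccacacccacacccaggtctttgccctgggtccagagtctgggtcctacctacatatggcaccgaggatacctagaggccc

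The Cyp2c70 match begins 17 bases after the transcription start and the Nr1i3 match at position -109 relative to it, both on the strand opposite to the gene. No match was in the Fmo5 or the Cyp2c55 window. RefSeq promoters were found for 31 member genes, 34 promoters in all, and 5 of these held the AP-1 motif (Nr1i3, Cyp3a13, Gstp1, Aldh1a1 and Cyp2c70), against 5.2% of 32851 promoters in the table. The core motif of the aryl hydrocarbon receptor and its partner, GCGTG, was in 7 member promoters, those of Por, Cyp2b10, Cyp1a1, Gsta2, Gstp1 and both of Gstm1, against 32.4% of all promoters. The Gstm1 windows overlap, and their matches, at -231 and -76, are the same site. The NRF2 core (TGAC and GC with any 3 bases between them, which can overlap the AP-1 motif) was in 0 member promoters and 12.4% of all. These are letter matches within 300 bases and were not tested for binding.

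Fmo5, a flavin monooxygenase that inserts oxygen beside carbonyl groups, had log2 signals of 13.34, 13.26, 13.42, 13.38 and 13.17 in the arrays labelled dn-cJun, against 13.03, 13.05, 12.95, 12.85 and 12.86 in control arrays. The lowest array labelled dn-cJun lay above the highest control array, and controls 14 and 15 were the lowest of all. The means were 13.32 ± 0.10 in arrays labelled dn-cJun and 12.95 ± 0.10 in control arrays (SD, n = 5 each), a log2 fold change of 0.37 (SE 0.07, 95% interval 0.22 to 0.51, limma adjusted p = 0.0311), or 1.29-fold higher. Its other probe sets gave log2 fold changes of 0.41 (SE 0.09) and 0.59 (SE 0.11), also with no overlap between groups. In whole liver, more or fewer cells of a type and more or less RNA per cell cannot be told apart. Without controls 14 and 15 Fmo5 did not pass, at 0.31 (SE 0.08, limma adjusted p = 0.101), and it passed in 3 of the 10 fits that left out 1 array, those without control 11, control 12 or dn-cJun 20. P-values here judge the difference between the group means against the spread between mice within groups.

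Fmo1, another flavin monooxygenase, did not pass. Its log2 signals were 12.49, 12.63, 12.45, 12.61 and 12.66 in the arrays labelled dn-cJun, against 12.46, 12.45, 12.47, 13.07 and 13.05 in control arrays. Controls 14 and 15 were the highest arrays, and the log2 fold change was -0.13 (SE 0.13) with them and 0.11 (SE 0.08) without them. Of the members most like Fmo5 over the 10 arrays after the group means were taken out, the first were Aldh1a1 (Pearson r = 0.54, Spearman rho = 0.55), Ugt2b5 (r = 0.52, rho = 0.44) and Cyp2f2 (r = 0.46, rho = 0.48), given as a description with no test. Negative values were larger, at r = -0.82 for Gstt1, -0.77 for Cyp2c37 and -0.75 for Fmo1. Controls 14 and 15 lay below the other 8 arrays in Fmo5, Aldh1a1 and Cyp2f2. In Gstt1, Cyp2c37 and Fmo1 they lay above the other 8. The part of these controls in the correlations was not tested.

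The Cyp2c enzymes, which oxidise drugs and fatty acids, carried the lowest fold changes of phase 1. Cyp2c70, which in mice makes muricholic bile acids, had log2 signals of 14.69, 14.42, 14.53, 14.81 and 14.68 in the arrays labelled dn-cJun, against 14.92, 14.93, 14.88, 15.05 and 15.04 in control arrays. All 5 arrays labelled dn-cJun lay below all 5 control arrays. The log2 fold change was -0.34 (SE 0.07, 95% interval -0.49 to -0.18), just outside the threshold at a limma adjusted p of 0.0535, and -0.29 (SE 0.08, adjusted p = 0.162) without controls 14 and 15. The scaling of the arrays moved it, to -0.19 (adjusted p = 0.539) with equal array medians and to -0.35 (adjusted p = 0.0332, past the threshold) with the values as deposited.

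Cyp2c38 had log2 signals of 10.61, 10.63, 10.15, 10.35 and 10.64 in the arrays labelled dn-cJun, against 11.01, 10.67, 10.38, 11.23 and 11.34 in control arrays. The groups overlapped through control 13, and controls 14 and 15 were the highest arrays. Its log2 fold change was -0.45 (SE 0.17, limma adjusted p = 0.238) over all arrays and -0.21 (SE 0.15, adjusted p = 0.590) without these controls.

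Cyp2c55 had log2 signals of 9.87, 10.17, 10.03, 9.86 and 10.11 in the arrays labelled dn-cJun, against 10.67, 10.47, 10.90, 9.94 and 9.88 in control arrays. The range of the arrays labelled dn-cJun held controls 14 and 15, and the other 3 controls lay above it. Over all arrays the log2 fold change was -0.37 (SE 0.18, limma adjusted p = 0.353). Without controls 14 and 15 it was -0.67 (SE 0.12, adjusted p = 0.0367), and Cyp2c55 was then the 1 member that passed, where 0.408% of 12758 genes did, 0.102% higher and 0.306% lower. A term for controls 14 and 15 in the fit of all arrays gave -0.67 (adjusted p = 0.0170), and Cyp2c55 and Nr1i3 were then the members that passed, with 1.22% of all genes.

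Cyp2c37 was among the 4 members with the widest spread over control arrays. Its log2 signals were 12.33, 12.53, 11.90, 11.71 and 12.60 in the arrays labelled dn-cJun, against 11.49, 12.60, 12.40, 13.41 and 13.31 in control arrays. Controls 14 and 15 were the highest arrays, and the log2 fold change was -0.43 (SE 0.31) with them and 0.05 (SE 0.25) without them. Cyp2c29, an abundant member of the same subfamily, had -0.15 (SE 0.10) with them and -0.30 (SE 0.08, limma adjusted p = 0.119) without them. Near-identical Cyp2c genes can share probe sets, so each value may hold signal of a relative.

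**Figure D2:**
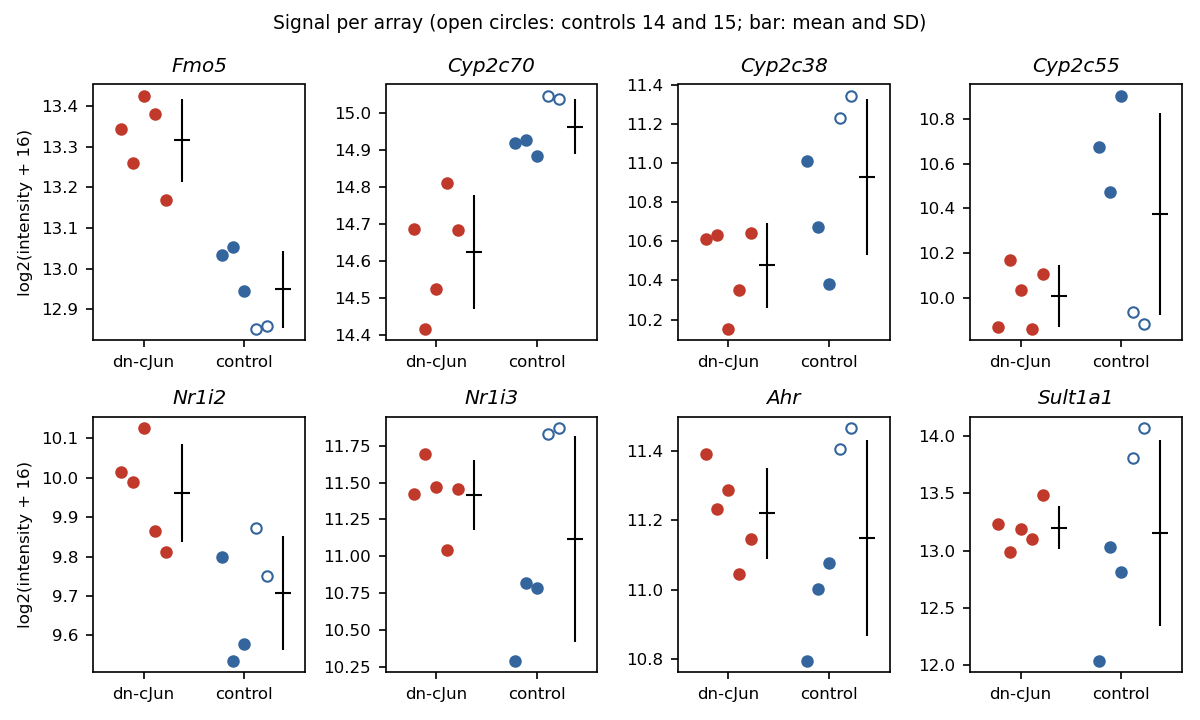
Log2 signal per array, log2(intensity + 16) on the vertical axis, of 8 members in arrays labelled dn-cJun (red, left) and control arrays (blue, right), with the mean and SD beside each group; open circles are controls 14 and 15. Fmo5 and Cyp2c70 separate the groups, and the open circles lie apart from the other controls in every panel except that of Nr1i2.

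Cyp2b10, the mouse enzyme best known as a target of Nr1i3, was dim and variable. Its log2 signals were 7.30, 5.94, 6.34, 6.30 and 7.81 in the arrays labelled dn-cJun, against 5.95, 7.19, 6.93, 5.67 and 4.52 in control arrays. The groups overlapped widely, and controls 14 and 15 were the lowest arrays. The log2 fold change was 0.68 (SE 0.50, limma adjusted p = 0.570) over all arrays and 0.05 (SE 0.44) without controls 14 and 15. A second probe set above the filter gave 0.75 (SE 0.31), and 0.52 (SE 0.33) without these controls. The last, below the filter, gave -0.18 (SE 0.53), and -0.65 (SE 0.53) without them. Cyp2b13, a Cyp2b enzyme known as female-biased in mouse liver, was below the filter, at 4.48 to 5.46 in the arrays labelled dn-cJun and 4.57 to 5.30 in control arrays, with a log2 fold change of -0.13 (SE 0.27).

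The classical drug oxidising P450s showed no difference that passed. Cyp3a11, the main mouse enzyme of the subfamily that Nr1i2 controls, had log2 signals of 15.56 to 15.63 in the arrays labelled dn-cJun and 15.53 to 15.65 in control arrays, with a log2 fold change of -0.02 (SE 0.05). Cyp2e1, which oxidises ethanol and other small molecules, had 0.01 (SE 0.06). Cyp1a2, a target of Ahr that oxidises aromatic amines, had 0.02 (SE 0.12), and Cyp1a1, the most inducible target of Ahr, had -0.10 (SE 0.25). For Cyp3a11 the 95% interval ran from -0.12 to 0.08 with the arrays scaled to 1 distribution, and the scaling itself moved its value more than that, as given further on. Cyp3a13 (0.02, SE 0.07), Cyp2d26 (-0.15, SE 0.10) and Cyp2f2, which activates naphthalene (0.24, SE 0.14), did not pass, and Cyp2f2 was at 0.02 (SE 0.09) without controls 14 and 15.

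The remaining phase 1 members lay close to 0. Aldh1a1, which oxidises retinal and other aldehydes, had a log2 fold change of 0.08 (SE 0.07), and Ephx1, the microsomal epoxide hydrolase, had -0.05 (SE 0.06). Por, which passes electrons to all microsomal P450s, has no probe set of its own in the table used here, so no value is given for it. Cyp2a5, the mouse coumarin hydroxylase, was read only through a probe set shared with Cyp2a4, at -0.0033 (SE 0.07).

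The conjugating enzymes of phase 2 had no member past the threshold, and none at an unadjusted p under 0.05. Gstm1, a glutathione transferase of the mu class, had log2 signals of 15.70, 15.82, 15.84, 15.11 and 15.47 in the arrays labelled dn-cJun, against 15.96, 15.76, 15.84, 15.88 and 15.71 in control arrays. Arrays dn-cJun 19 and 20 were the lowest, dn-cJun 16 lay just below the control range, and the other 2 arrays labelled dn-cJun lay within it. Its log2 fold change was -0.24 (SE 0.12, limma adjusted p = 0.367), and its 3 further probe sets gave -0.23, -0.18 and -0.16. With every probe set as the unit, the one at -0.23 had an unadjusted limma p of 0.0217 (adjusted p = 0.272).

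Gstm4, of the same class, had log2 signals of 11.70, 12.08, 12.13, 11.13 and 11.25 in the arrays labelled dn-cJun, against 12.22, 11.71, 12.05, 11.85 and 11.51 in control arrays. Gsta4, an alpha class transferase that conjugates lipid aldehydes, had 12.63, 13.04, 13.03, 11.88 and 12.22 in the arrays labelled dn-cJun, against 12.85, 12.38, 12.81, 12.93 and 12.79 in control arrays. In both genes dn-cJun 19 and 20 were the lowest arrays, and the other 3 lay within or near the control range. The log2 fold changes were -0.21 (SE 0.19, limma adjusted p = 0.660) for Gstm4 and -0.19 (SE 0.20, adjusted p = 0.702) for Gsta4. Gstm3 had -0.13 (SE 0.20), and Gsta2, another alpha class enzyme, had 0.04 (SE 0.22).

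The 5 alpha and mu members all lay below their means over the 10 arrays in dn-cJun 19 and 20 and above them in dn-cJun 17 and 18. They parted on some control arrays, as in control 12, where Gsta2 was at -0.61 relative to its mean and Gstm1 at 0.05. Their mean signal, centred on each gene's mean over the 10 arrays, was 0.05, 0.35, 0.32, -0.70 and -0.39 in the arrays labelled dn-cJun, against 0.26, -0.21, 0.17, 0.18 and -0.04 in control arrays. The arrays labelled dn-cJun thus spanned 1.05 on the log2 scale and the control arrays 0.475. Over the 10 pairs of these genes the Pearson correlation of the deviations from group means was 0.829 to 0.978 over 10 arrays, and over 11 pairs with Gstt1 or Gstp1 it was -0.466 to 0.156, as a description with no test. The grouping into alpha and mu members was not planned beforehand. The low values in dn-cJun 19 and 20 enter all 10 pairs, so the correlations are not separate support for them. Paralogs of these classes are similar in sequence, and a shared signal between their probe sets was not tested. Of 5 further alpha and mu genes tested, Gstm2 (-0.61, SE 0.24, limma adjusted p = 0.265) and Gstm6 (-0.61, SE 0.19, adjusted p = 0.153) were also lowest in dn-cJun 19 and 20. Gstm7 (-0.11, SE 0.09) was lowest there by little, with dn-cJun 20 at -0.134 and control 14 at -0.128 relative to its mean. Gsta3 (0.06, SE 0.06) and Gstm5 (-0.02, SE 0.08) were not lowest in these arrays.

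**Figure D3:**
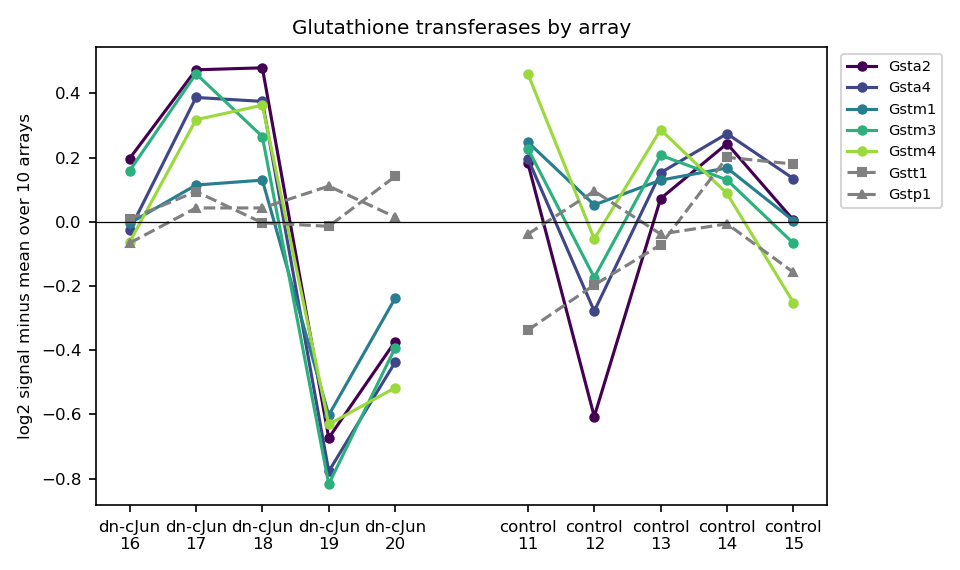
Log2 signal of 7 glutathione transferases on each array minus the gene's mean over the 10 arrays (vertical axis), for arrays labelled dn-cJun (left) and control arrays (right); lines join the values of 1 gene for legibility, and the order of arrays has no meaning. The 5 alpha and mu genes (coloured) are low together in dn-cJun 19 and 20, and Gstt1 and Gstp1 (grey, dashed) are not.

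Gstp1, the pi class transferase, had log2 signals of 15.79, 15.90, 15.90, 15.97 and 15.88 in the arrays labelled dn-cJun, against 15.82, 15.96, 15.82, 15.85 and 15.70 in control arrays. The groups overlapped, and dn-cJun 19 was the highest array. Its log2 fold change was 0.06 (SE 0.06, limma adjusted p = 0.674). Gstt1, of the theta class, had 0.09 (SE 0.10) over all arrays and 0.25 (SE 0.08, adjusted p = 0.185) without controls 14 and 15.

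Sult1a1, which sulfates phenols, had log2 signals of 13.23, 12.99, 13.19, 13.10 and 13.49 in the arrays labelled dn-cJun, against 12.04, 13.03, 12.81, 13.81 and 14.07 in control arrays. Controls 14 and 15 were the highest arrays and control 11 the lowest, so the control group spanned all the others. The log2 fold change was 0.05 (SE 0.29, limma adjusted p = 0.957) over all arrays and 0.58 (SE 0.19, adjusted p = 0.200) without controls 14 and 15. The glucuronosyltransferases Ugt2b5 (0.02, SE 0.07) and Ugt2b34 (-0.07, SE 0.09) lay close to 0. Ugt1a1, the bilirubin glucuronosyltransferase, was read only through 3 probe sets shared with 7 other Ugt1a genes, at 0.11, 0.03 and 0.08.

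The 3 receptors had log2 fold changes above 0, and none passed. Nr1i2 had log2 signals of 10.02, 9.99, 10.12, 9.87 and 9.81 in the arrays labelled dn-cJun, against 9.80, 9.54, 9.58, 9.87 and 9.75 in control arrays. The groups overlapped through control 14 alone of the controls. Its log2 fold change was 0.25 (SE 0.10, limma adjusted p = 0.236), and 0.32 (SE 0.11, adjusted p = 0.221) without controls 14 and 15. A second probe set gave 0.19 (SE 0.15).

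Nr1i3 had log2 signals of 11.42, 11.69, 11.47, 11.04 and 11.46 in the arrays labelled dn-cJun, against 10.29, 10.82, 10.79, 11.83 and 11.87 in control arrays. All arrays labelled dn-cJun lay below controls 14 and 15 and above the other 3 controls. Over all 10 arrays the log2 fold change was 0.30 (SE 0.26, limma adjusted p = 0.643). It was 0.79 (SE 0.15) without these controls, just outside the threshold at an adjusted p of 0.0508, and 0.78 (adjusted p = 0.0269) with a term for them.

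Ahr had log2 signals of 11.39, 11.23, 11.29, 11.05 and 11.15 in the arrays labelled dn-cJun, against 10.79 to 11.08 in controls 11 to 13 and 11.41 and 11.47 in controls 14 and 15. The last 2 were the highest arrays of all, as for Nr1i3. Its log2 fold change was 0.07 (SE 0.12, limma adjusted p = 0.832) over all arrays and 0.26 (SE 0.10, adjusted p = 0.282) without these controls. With the values as deposited Ahr was at -0.12, where the median of all genes was at -0.19.

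Phase 1 and phase 2 had similar medians. Over all arrays phase 1 held the wider range, with its upper end set by the dim Cyp2b10. Of the 17 phase 1 members tested, 7 lay above and 10 below 0, with a median log2 fold change of -0.05 (-0.07 over 18 members without the filter) and a range of -0.45 to 0.68. Of the 10 phase 2 members tested, 5 lay above and 5 below 0, with a median of -0.03 and a range of -0.24 to 0.09. Over all genes the median was 0.00 and the median size of a change was 0.141, against 0.146 in phase 1 and 0.081 in phase 2. Without controls 14 and 15 the medians were -0.02 in phase 1 and -0.09 in phase 2. The ranges were then -0.67 to 0.31 in phase 1 and -0.34 to 0.58 in phase 2. The order of the median sizes turned, to 0.106 in phase 1 and 0.145 in phase 2, with 0.154 over the 12614 genes tested with and without these controls. The median SD between mice was 0.120 in phase 1 and 0.247 in phase 2 in the arrays labelled dn-cJun, and 0.211 in phase 1 and 0.197 in phase 2 in control arrays. Over all genes the median SD was 0.204 in the arrays labelled dn-cJun and 0.219 in control arrays. These medians describe the lists and were not tested.

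In 12 of the 30 members, controls 14 and 15 both lay outside the range of the other 8 arrays on the same side. They were above it in 8 members, Cyp2c37, Cyp2c38, Cyp2c70, Fmo1, Sult1a1, Gstt1, Nr1i3 and Ahr, and in 6.35% of all genes. They were below it in 4 members, Cyp2b10, Cyp2f2, Fmo5 and Aldh1a1, and in 5.65% of all genes. With these controls left out, the group ranges did not overlap in 8 members, Fmo5, Cyp2c70, Cyp2c29, Cyp2c55, Cyp3a13, Gstt1, Nr1i2 and Nr1i3, and in 9.66% of all genes, and 51.2% of all genes lay above 0. At an unadjusted p under 0.05 there were then 9 members and 13.7% of all genes. Of the 8 male-biased liver genes tested, 8 lay above 0 over all arrays (median 0.56) and 7 lay below 0 without these controls (median -0.56). Then 2 of the male-biased genes, Elovl3 and C6, passed as lower, where 0.306% of all genes did. Of the 5 female-biased genes tested, 5 lay below 0 over all arrays (median -0.30) and 3 lay above 0 without these controls (median 0.10), and none passed. By Xist and Eif2s3y, controls 14 and 15 read as female and the other 8 arrays as male. The labels do not give sex, and its part in these values was not tested.

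Several members are among the brightest probe sets of the array, where directions changed with the scaling between arrays. For the 13 members above the 99th percentile of mean signal, the median log2 fold change was -0.02 with quantile normalization, with 6 above 0, and 0.09 with equal array medians, with 10 above 0. With a further factor per array taken out of the deposited values it was 0.13, with 11 above 0. All 249 tested genes of that brightness moved likewise, from a median of 0.02 with quantile normalization to 0.18 with equal medians and 0.21 with the factor taken out. Cyp3a11 was at -0.02, 0.26 and 0.29 under these settings, Cyp2e1 at 0.01, 0.28 and 0.31, and Gstp1 at 0.06, 0.38 and 0.41. Gstm1 turned from -0.24 to 0.04 and 0.08. None of these 4 members passed under any of the 3 settings.

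**Figure D4:**
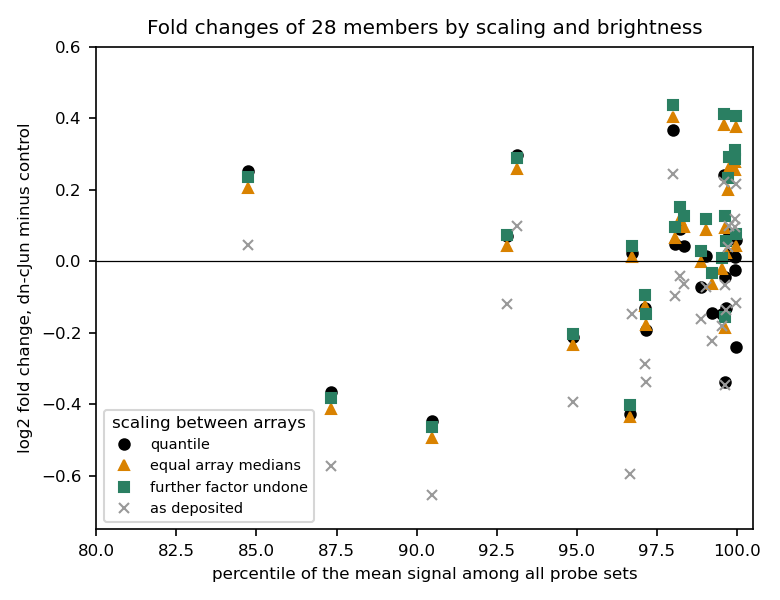
Log2 fold change (arrays labelled dn-cJun minus control, vertical axis) against the percentile of the probe set's mean signal among all probe sets (horizontal axis) for 28 members under 4 scalings of the arrays; Cyp1a1 and Cyp2b10 are dimmer and lie outside the axes. Near the right edge the equal-median and factor-undone values lie above the quantile values, and the values as deposited lie lower at dimmer probe sets.

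The wider pathway was listed with earlier results of these data known. Of 51 other phase 1 genes tested, none passed, with 27 above and 24 below 0 and a median of 0.015. Among all genes 0.777% passed, so no call in a list of this size is near that share. The smallest p there belonged to Aldh1b1 (0.39, SE 0.09, limma adjusted p = 0.0576) and Aldh9a1 (0.23, SE 0.06, adjusted p = 0.124), both aldehyde dehydrogenases. Of 39 other phase 2 genes none passed, with 21 above and 18 below 0, and the smallest p belonged to Gstm6 and Gstk1 (-0.35, SE 0.11, adjusted p = 0.155), a transferase of the kappa class. At an unadjusted p under 0.05 there were 5 of the other phase 1 genes and 7 of the other phase 2 genes, and 14.9% of all genes.

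Of 19 regulators tested, 1 passed, where 0.777% of all genes did. Dbp, a clock-controlled transcription factor that drives several P450 genes, had log2 signals of 12.29 to 12.56 in the arrays labelled dn-cJun and 12.65 to 13.05 in control arrays. Its groups did not overlap, and it was lower in the arrays labelled dn-cJun at -0.44 (SE 0.08, limma adjusted p = 0.0323), with an adjusted p of 0.0842 without controls 14 and 15. Of these regulators 13 lay above and 6 below 0, with a median of 0.11.

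Markers of liver zones and of other cells were read beside the members. All 9 pericentral markers, from the zone around the central vein and none of them a P450, lay below 0. The P450 members, left out of this list, did not share 1 direction. Cyp2e1 was at 0.01 (SE 0.06) and Cyp1a2 at 0.02 (SE 0.12), while Cyp2c29 was at -0.15 (SE 0.10) and Cyp2c37 at -0.43 (SE 0.31). The median of the 9 markers was -0.45 (-0.37 without controls 14 and 15). None of these 9 markers passed, with 5 at an unadjusted p under 0.05, where 14.9% of all genes were. Glul, glutamine synthetase, had the smallest p (-0.58, SE 0.16, limma adjusted p = 0.118), and their summed intensity was 41135 to 56577 in the arrays labelled dn-cJun and 49147 to 66141 in control arrays. Of 8 periportal markers 6 lay above 0 (median 0.13), and none passed, with Pck1 (0.43) and Ass1 (1.12) at an unadjusted p under 0.05. Of 7 macrophage markers, 2 were lower in the arrays labelled dn-cJun, Lyz2 (-0.70, SE 0.13, limma adjusted p = 0.0294) and Cd5l (-0.57, SE 0.11, adjusted p = 0.0323). The summed intensity of the macrophage list was 12299 to 14399 in the arrays labelled dn-cJun and 15244 to 22946 in control arrays. Among all genes tested, 0.432% passed as lower over all arrays and 0.306% without controls 14 and 15. Without controls 14 and 15, 1 macrophage marker passed, Lyz2 (-0.65, SE 0.12, adjusted p = 0.0367), while Cd5l was at -0.49 (SE 0.12, adjusted p = 0.105), and 3 of the 7 markers lay above and 4 below 0, where 2 and 5 did over all arrays. Of 18 acute phase genes 14 lay below 0, and Orm2 was lower (-0.86, SE 0.12, adjusted p = 0.0103); without controls 14 and 15, 12 lay below 0 and Orm2 passed (-0.88, SE 0.14, adjusted p = 0.0272). None of the 6 endothelial, 4 bile duct, 6 stellate cell and 6 leukocyte markers tested passed, with 1, Krt19 of the bile duct, at an unadjusted p under 0.05 (-0.89, SE 0.32). The part of these markers in the values of Fmo5, the Cyp2c enzymes and the receptors was not tested.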

How the data were processed

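Liver RNA of 10 mice had been hybridised to Affymetrix 430 2.0 arrays, 5 labelled dn-cJun and 5 control, grouped here by sample title. The authors deposited linear intensity per probe set, made with software not given here, and each array carries a factor of 0.887 to 1.22 relative to control 13. Values were analysed as log2(intensity + 16) after quantile normalization, because the array medians spanned 0.50 against a limit of 0.1 (limma 3.58.1, R 4.3.3). The 45101 probe sets comprised 64 controls, which were dropped after normalization, 34945 with 1 gene symbol, 932 with several and 9160 with none in the annotation used. Of the single-gene entries 99.4% matched the RefSeq gene table by Entrez identifier, and 0 symbols changed. A gene was read by its brightest probe set and kept if that lay above the 40th percentile. Of the 34 members, 7 had several probe sets, 11 further ones in all, of which 2 had the opposite sign.

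Arrays labelled dn-cJun were compared with control arrays in limma (lmFit, and eBayes with a trend in intensity). Tests were two-sided and Benjamini-Hochberg adjusted over 12736 genes, with a threshold of 0.05. The fit was tested on simulated data. The number of arrays sets the precision. The members and lists were chosen with earlier results of these data known. Values per array are given for members past the threshold, the 4 of phase 1 and the 4 of phase 2 with the smallest p, the receptors, and the 4 with the largest SD over control arrays. Fmo1 was added after its values were seen. In other lists the rule names up to 4 genes past the threshold, or else the 2 with the smallest p. Elovl3, C6, Gstm2, Gstm7, Gsta3 and Gstm5 were named after their values were seen.

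The alternatives were other scalings (as deposited, equal array medians, the factor per array undone), a pseudocount of 1 or 64, the filter dropped or set at the 60th percentile, other ways to read a gene (the average of its probe sets, each probe set alone, no probe sets ending in _x_at or _s_at), eBayes robust or with no trend, each array left out, controls 14 and 15 left out or given a term, and an adjusted p of 0.1. Per the labels' protocols control 11 was extracted with Trizol, while those of the other 9 arrays state Affymetrix. Promoters came from the RefSeq table of GRCm38.p6. Figures were drawn with matplotlib 3.10.9.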

Additional observations from a re-analysis of the deposited data

Results flagged for a closer look

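Among 60 groups of 5 arrays (30 members in both conditions), 5 held an array set apart from the other 4, where chance flags about 1 in 20, or 3 groups. Cyp2e1 was at 15.82 in dn-cJun 16 and at 15.56 to 15.63 in the other arrays labelled dn-cJun. It was also at 15.79 in control 11, with the other control arrays at 15.57 to 15.59. Ugt2b34 was at 14.22 in control 11, with the other control arrays at 13.79 to 13.89. Gsta2 was at 12.79 in control 12, with the other control arrays at 13.40 to 13.64. Gsta4 was at 12.38 in control 12, with the other control arrays at 12.79 to 12.93. The RNA of control 11 is the one whose protocol entry names Trizol, and the part of that in these values was not tested.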

How the results depend on the processing

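Of 719 values of single members under the alternatives, 680 kept their direction and their side of the threshold; sign changes of uncalled values smaller than 1 SE, 31 in all, were counted among these. The 99 genes called became 490 with the values as deposited (22 higher, 468 lower, with the median of all genes at -0.19), 65 with equal array medians, 44 with the average over a gene's probe sets, 170 with every probe set as the unit, 9 without the trend, 52 without controls 14 and 15, 156 with a term for them and 250 at an adjusted p of 0.1. Leaving out 1 array gave 13 (without dn-cJun 17) to 199 (without control 12). The 1 member called became 0 with equal array medians and without the trend. It became 2, Fmo5 and Cyp2c70, with a pseudocount of 64, the 60th percentile, robust eBayes and an adjusted p of 0.1, and 2, Cyp2c55 and Nr1i3, with a term for controls 14 and 15. With the values as deposited the 1 member was Cyp2c70, and without controls 14 and 15 it was Cyp2c55. Leaving out 1 array gave 0 to 1. The phase 1 median of -0.05 became -0.15 with the values as deposited and 0.043 with the further factor undone, and lay between -0.08 and -0.01 with 1 array left out. The phase 2 median of -0.03 became 0.086 once the further factor was undone, 0.054 under equal array medians, -0.11 in the deposited values and -0.13 with every probe set as the unit, and lay between -0.10 and 0.03 with 1 array left out.

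With controls 14 and 15 left out the direction turned for Aldh1a1 (-0.017), Fmo1 (0.11), Cyp2c37 (0.050) and Ugt2b5 (-0.067). With a term for them it turned for Aldh1a1 (-0.015), Fmo1 (0.11), Cyp2c37 (0.050) and Ugt2b5 (-0.067). With the values as deposited it turned for Cyp3a11 (0.095), Gstt1 (-0.041), Cyp3a13 (-0.15) and Ahr (-0.12). With equal array medians it turned for Cyp3a11 (0.26), Ephx1 (0.094) and Gstm1 (0.043). With the further factor undone it turned for Cyp3a11 (0.29), Cyp2c29 (0.010), Ephx1 (0.13), Ugt2b34 (0.030) and Gstm1 (0.075). Beyond the scaling and the arrays used, the cause was not tested. Fmo5 stayed above 0 in all alternatives and missed the threshold in 12, among them the values as deposited (0.25, adjusted p = 0.126), equal array medians (0.41, adjusted p = 0.110) and no trend (0.37, adjusted p = 0.113). No paired analysis was possible because the replicate numbers do not repeat between the groups. The number of arrays limits the precision, and Cyp2b10, a dim member, had the widest 95% interval.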
